A study of Mus musculus with 11 samples.

Results

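The beta-defensin gene regions were taken as the rows of the deposited table whose symbol is Defb followed by a digit, which gave 42 of 21534 gene regions, 41 genes and the pseudogene Defb44-ps. They lie in 4 chromosome clusters, with 24 regions on chr8, 11 on chr2, 5 on chr14 and 2 on chr1. Their contact with lamin B1, part of the protein mesh under the nuclear envelope called the lamina, was read by DamID-seq in mouse cells labelled WT, taken as oligodendrocyte precursors (OPC) at postnatal day 7 from C57BL/6 brain cortex. All cells carried a lentivirus for 1 day, with either Dam-LMNB1, the adenine methyltransferase Dam tethered to lamin B1, or untethered Dam. They were then kept for 72 h in differentiation medium (labelled T3, here OL for oligodendrocyte) or in proliferation medium (labelled PF, here OPC). The groups were OL Dam-LMNB1 (libraries 18, 19 and 20), OPC Dam-LMNB1 (8, 9 and 10), OL Dam (12, 13 and 14) and OPC Dam (2 and 4). The promoter that drove Dam, how many animals were used and any pooling of them are not stated in the sources used here. Each of the 6 Dam-LMNB1 libraries has 1 score per region, made by the authors against the pooled Dam libraries of the same condition, so the Dam libraries have no values of their own here. A score above 0 is read as more methylation by Dam-LMNB1 than by Dam, and so as contact with the lamina. The scale has no stated log base, so differences are in score units. The score is an average over many cells, in which a larger share of cells in contact and a longer contact per cell cannot be told apart.

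Beta-defensins are small secreted peptides that kill microbes by damaging their membranes, and they also act as signals to immune cells and coat maturing sperm. In the mouse some are made by the lining of the kidney, airways, gut and skin, either steadily (Defb1) or after infection (Defb2, Defb3, Defb4 and Defb14), and many are made in the epididymis and testis. The family grew by tandem duplication, so the copies stand side by side. DamID reports where chromatin lies and not how much RNA is made, so the cell type could not be checked from the scores. The genes of 6 lineage markers (Pdgfra, Cspg4, Olig2, Sox10, Mbp and Mog) lay below 0 in both conditions, 6 of 6, where 70.9% of all regions did in OL and 71.4% in OPC (limma, adjusted p under 0.05). Of these, Sox10, Pdgfra and Cspg4 were higher in OL than in OPC, 3 of 6, where 23.0% of all regions were.

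Dam methylates the letters GATC, the same on both strands. Promoter sequence from RefSeq (GRCm38.p6), taken here as the 250 bases before an annotated start, was matched for 28 of the 42 regions, with 29 starts. The promoters shown first are those of Defb3 and Defb8 on chr8, the most alike of the 406 pairs of member promoters, with 222 identical bases over 256 aligned positions (86.7%). Capitals mark GATC.
Defb3 (chr8:19293111-19293360, plus strand): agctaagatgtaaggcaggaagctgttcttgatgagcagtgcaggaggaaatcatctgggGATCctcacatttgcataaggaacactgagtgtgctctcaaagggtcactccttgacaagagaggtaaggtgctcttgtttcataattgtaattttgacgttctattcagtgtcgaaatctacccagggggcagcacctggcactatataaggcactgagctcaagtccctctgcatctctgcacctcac
Defb8 (chr8:19447607-19447856, minus strand): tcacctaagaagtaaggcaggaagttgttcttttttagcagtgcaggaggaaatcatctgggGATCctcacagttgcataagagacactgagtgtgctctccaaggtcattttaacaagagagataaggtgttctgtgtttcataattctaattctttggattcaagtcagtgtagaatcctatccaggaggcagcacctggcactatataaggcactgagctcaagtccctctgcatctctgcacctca
Next are Defb9, the chr8 member with the largest fall in score in OL, which has no GATC in this window, and 2 chr2 members, Defb45 with the largest fall of all members and Defb28 with the highest score on chr2. The last is Defb42, the lowest member over both conditions, on chr14.
Defb9 (chr8:21885435-21885684, minus strand): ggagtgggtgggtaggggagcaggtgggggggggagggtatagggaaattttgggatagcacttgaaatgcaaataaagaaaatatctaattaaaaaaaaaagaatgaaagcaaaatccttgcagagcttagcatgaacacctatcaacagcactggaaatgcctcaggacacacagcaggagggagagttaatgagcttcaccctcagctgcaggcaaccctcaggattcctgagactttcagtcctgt
Defb45 (chr2:152596486-152596735, minus strand): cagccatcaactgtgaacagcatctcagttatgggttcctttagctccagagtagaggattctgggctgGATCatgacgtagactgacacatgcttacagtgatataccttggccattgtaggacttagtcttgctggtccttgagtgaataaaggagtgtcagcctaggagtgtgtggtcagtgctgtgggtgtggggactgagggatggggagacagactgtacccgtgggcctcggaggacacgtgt
Defb28 (chr2:152518005-152518254, plus strand): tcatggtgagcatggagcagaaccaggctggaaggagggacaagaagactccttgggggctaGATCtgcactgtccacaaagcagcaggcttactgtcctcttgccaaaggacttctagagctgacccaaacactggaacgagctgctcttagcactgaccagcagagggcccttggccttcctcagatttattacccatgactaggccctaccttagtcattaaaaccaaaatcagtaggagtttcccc
Defb42 (chr14:63046741-63046990, plus strand): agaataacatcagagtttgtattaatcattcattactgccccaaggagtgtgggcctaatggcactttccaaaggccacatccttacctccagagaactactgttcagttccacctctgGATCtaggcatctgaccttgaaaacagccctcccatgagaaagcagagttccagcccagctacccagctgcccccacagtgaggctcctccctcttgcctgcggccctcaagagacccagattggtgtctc
GATC occurred in 16 of the 29 member windows (55.2%), against 41.9% of 32851 windows of all genes. By cluster it occurred in 7 of 10 windows on chr2, 6 of 14 on chr8 and 3 of 5 on chr14. The member windows were poor in CpG, the letters CG, with a median of 1 per window against 6 over all genes. A count of 6 or more was met in 1 of the 29 member windows (3.45%) and in 50.4% of all windows. The median was 1 on chr8, 2 on chr2 and 3 on chr14, so low CpG was common to the 3 clusters with matched promoters, whichever side of 0 their scores lay on. These are descriptions of the letters and no site was tested. Another 8 pairs besides Defb3 and Defb8 were 70% identical or more, all among Defb3, Defb5, Defb6, Defb7, Defb8 and Defb46 of chr8, against a median of 50.2% over all pairs. No source used here states how reads were placed between such copies, and single values of these members are uncertain.

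The first question was which beta-defensin genes lay at the lamina. In OL, 26 of the 42 regions (61.9%) lay above 0, where 25.9% of all regions did, and 16 lay below, where 70.9% of all regions did (limma, adjusted p under 0.05 over all regions). In OPC the same counts were found, 26 above, where 25.5% of all regions did, and 16 below, where 71.4% did. The split followed the chromosome. All 24 chr8 and both chr1 members lay above 0, and all 11 chr2 and all 5 chr14 members lay below 0, each in all 6 libraries. The highest adjusted p among the members was 8.84e-05 in OL and 9.23e-04 in OPC (limma, Benjamini-Hochberg). Neighbours in a cluster share their level and 27 of the 42 regions overlap another member, so the 42 regions are not independent observations.

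**Figure D1:**
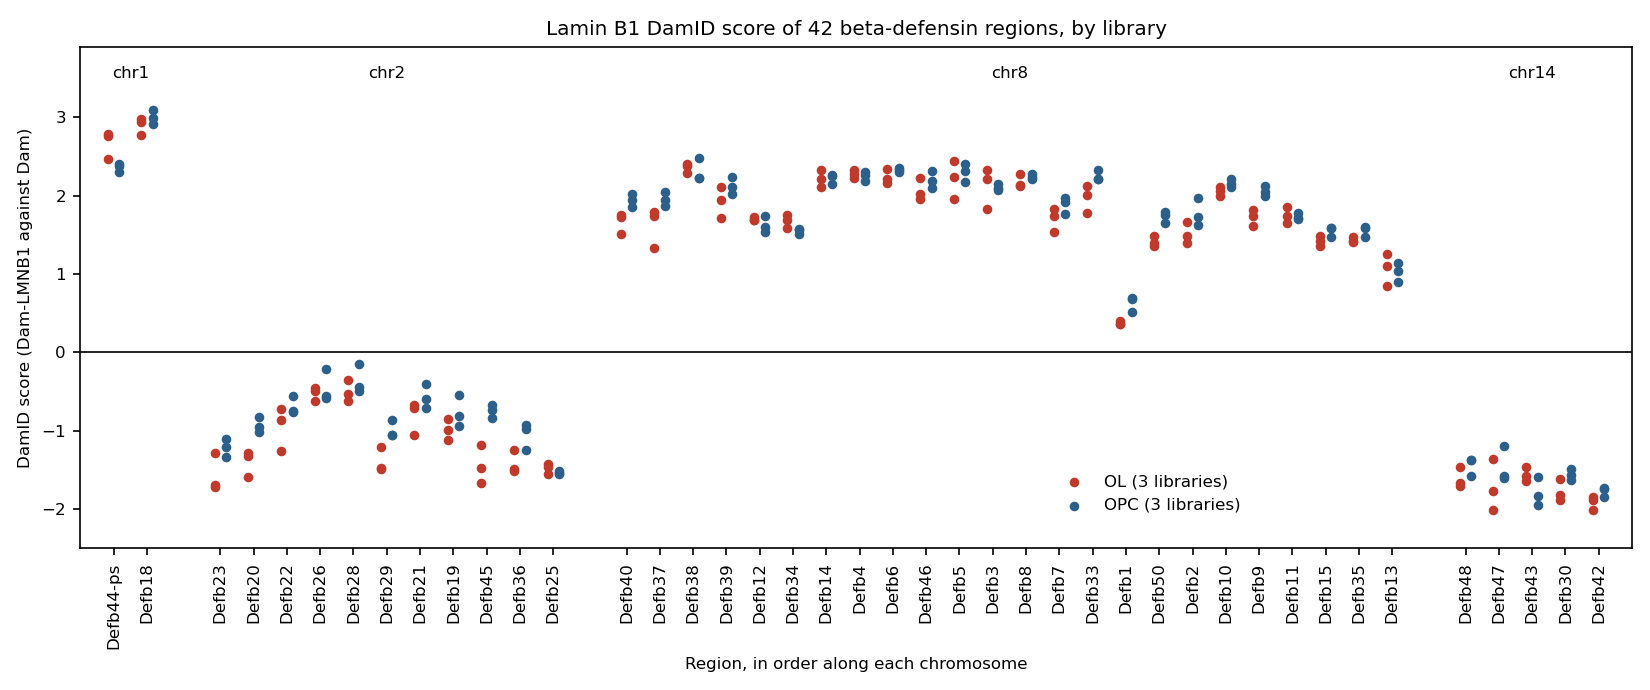
DamID score (vertical axis, score units) of each of the 42 beta-defensin regions in order along each chromosome, with 3 OL libraries (red, left) and 3 OPC libraries (blue, right) as points. All points of chr1 and chr8 lie above 0 and all points of chr2 and chr14 lie below 0.

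Over libraries, the median score of the chr8 cluster was 1.73, 1.77 and 1.84 in OL libraries 18, 19 and 20, against 1.999, 2.04 and 2.02 in OPC libraries 8, 9 and 10. That of the chr1 pair was 2.62, 2.85 and 2.88 in OL, against 2.65, 2.75 and 2.65 in OPC. Both chr1 members and all chr8 members except Defb1 had means above 1 in both conditions. The chr2 cluster had medians of −1.20, −1.18 and −1.28 in OL, against −0.87, −0.81 and −0.75 in OPC. The chr14 cluster had medians of −1.65, −1.77 and −1.71 in OL, against −1.49, −1.63 and −1.57 in OPC. The median over all regions ranged from −1.50 to −1.38 over the OL libraries and from −1.55 to −1.53 over the OPC libraries. The chr2 median was therefore above that of all regions in every library, and the chr14 median was below it in 5 of the 6 libraries, all except OPC library 8.

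**Figure D2:**
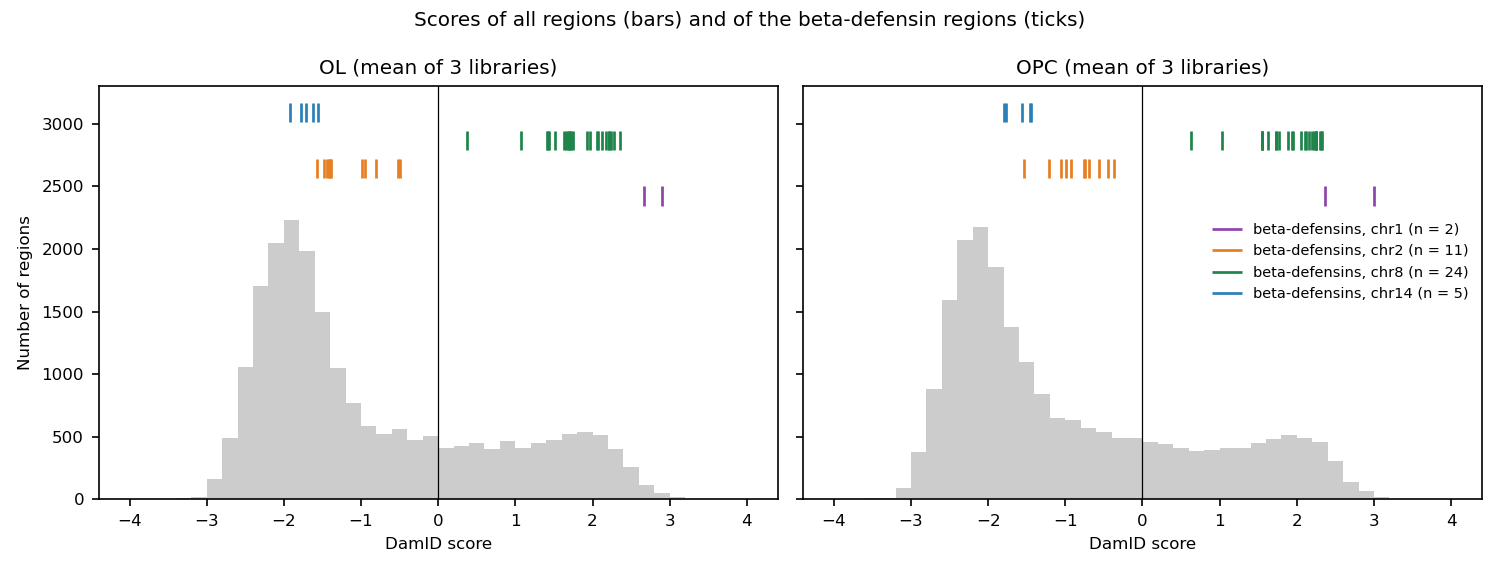
Number of regions (vertical axis) by DamID score (horizontal axis, mean of 3 libraries) in OL (left) and OPC (right), with 1 tick per beta-defensin region above the bars. The chr1 and chr8 ticks stand right of 0, all above 1 except that of Defb1 (0.37 in OL and 0.63 in OPC), and the chr2 and chr14 ticks stand left of 0.

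The chr8 cluster is the classical mouse beta-defensin locus and falls into a proximal group of 14 regions (chr8:18972939-19499775) and a distal group of 10 (chr8:20882666-21950622). No region of the table starts between the last of the proximal group, Defb7, and Defb33 of the distal group, which are 1383 kb apart. The proximal group opens with Defb40, Defb37, Defb38 and Defb39, which are epididymal, and also holds the inducible epithelial genes Defb14, Defb4 and Defb3. The highest chr8 member was Defb38 (chr8:19021463-19036529), with 2.29, 2.41 and 2.38 in OL and 2.48, 2.23 and 2.23 in OPC. Its libraries overlapped between conditions, and the difference was 0.05 ± 0.09 (SE, adjusted p = 0.702, limma). Region means in the proximal group ran from 1.63 (Defb37) to 2.36 in OL and from 1.55 (Defb34) to 2.33 (Defb6) in OPC. The run from Defb14 to Defb8 was the most even, with all 7 means between 2.07 and 2.28 in OL and between 2.11 and 2.33 in OPC. These 7 include the look-alike copies Defb3, Defb5, Defb6, Defb8 and Defb46, whose values may not be separate. Defb12 and Defb34 regions overlap and stood lower, at 1.70 ± 0.02 and 1.68 ± 0.08 in OL and 1.63 ± 0.10 and 1.55 ± 0.03 in OPC (SD, n = 3 each).

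The SD over the 10 region means of the distal group was 0.48 in OL and 0.50 in OPC, against 0.27 in OL and 0.25 in OPC in the proximal group. Without Defb1, left out after its value was seen, that of the other 9 was 0.31 in OL and 0.37 in OPC. A deletion of the genes from Defb1 to Defb13 in this group is known to leave male mice sterile. The lowest chr8 member was Defb1 (chr8:21766554-21797185), the steadily expressed epithelial gene, with 0.36, 0.36 and 0.40 in OL and 0.52, 0.69 and 0.68 in OPC. It was the only chr8 member with a mean below 1 in either condition, and its OL libraries lay below all of its OPC libraries. Its neighbours in the table were high on both sides. The alpha-defensin Defa24, ending 29082 bp before it, stood at 1.83 ± 0.21 in OL and 1.75 ± 0.14 in OPC. Defb50, starting 16352 bp after it, stood at 1.42 ± 0.07 in OL and 1.73 ± 0.07 in OPC (SD, n = 3 each). The step from Defb50 down to Defb1 was between −1.28 and −0.97 in the 6 libraries. Defb1 also has the widest member region, 30.6 kb against a median of 15.1 kb, and any part of width in its score was not tested. Defb10 was the highest of the genes after Defb1, at 2.06 ± 0.06 in OL and 2.16 ± 0.05 in OPC. Beyond it the scores were lower, down to 1.07 ± 0.21 in OL and 1.03 ± 0.13 in OPC at Defb13. Between them lie Defb9, Defb11 and the overlapping epididymal pair Defb15 and Defb35, with means of 1.43 to 1.75 in OL and 1.55 to 2.06 in OPC.

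The 2 ends of the chr8 cluster differed in shape. At the proximal end Xkr5, an XK-related membrane protein gene, had −1.76, −1.65 and −1.84 in OL and −1.16, −1.48 and −1.43 in OPC. Defb40 (chr8:18972939-18988116), whose region starts 11963 bp further on, had 1.51, 1.75 and 1.73 in OL and 1.94, 1.86 and 2.02 in OPC. The OL values of Defb40 were all below its OPC values. The step was 3.41 between the OL means and 3.30 between the OPC means, and it lay between 3.10 and 3.57 in each of the 6 libraries. Xkr5 was itself lower in OL (−0.39 ± 0.10, SE, adjusted p = 0.0179, limma), a call lost without OL library 20 or OPC library 8, with adjusted p up to 0.0589. Before it, Agpat5, Angpt2 and Mcph1 were also below 0 in both conditions. At the distal end the scores came down over several genes. Defb13 was followed by Fam90a1a, whose region overlaps its own, at 0.11 ± 0.08 in OL and 0.26 ± 0.09 in OPC. Ccdc70 stood at −0.32 ± 0.21 in OL and 0.18 ± 0.23 in OPC, and the copper transporter gene Atp7b at −0.46 ± 0.12 in OL and −0.48 ± 0.10 in OPC (SD, n = 3 each). Beyond them Alg11, a glycosylation enzyme gene, stood at −0.93 ± 0.08 in OL and −1.15 ± 0.22 in OPC. Nek5, a kinase gene, was back above 0 in OL at 0.33 ± 0.04, against 0.00 ± 0.05 in OPC (SD, n = 3 each), and was higher in OL (0.32 ± 0.07, SE, adjusted p = 0.00677, limma) in this and all 10 other fits. Fam90a1a was above 0 by the test in OPC and not in OL, and Ccdc70 was below 0 in OL and not in OPC. Ccdc70 was lower in OL by the test of the difference (−0.50 ± 0.13, SE, adjusted p = 0.0197, limma), a call lost without OL library 19 or 20 or OPC library 10 (adjusted p at most 0.0632). Fam90a1a was not (adjusted p = 0.141, limma). The 18 other regions inside the chr8 span, which are alpha-defensin genes and relatives with Spag11a and Spag11b, were above 0 in both conditions, 18 of 18. On the rest of chr8, 169 of 995 regions were above 0 in OL and 172 in OPC (17.3%).

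**Figure D3:**
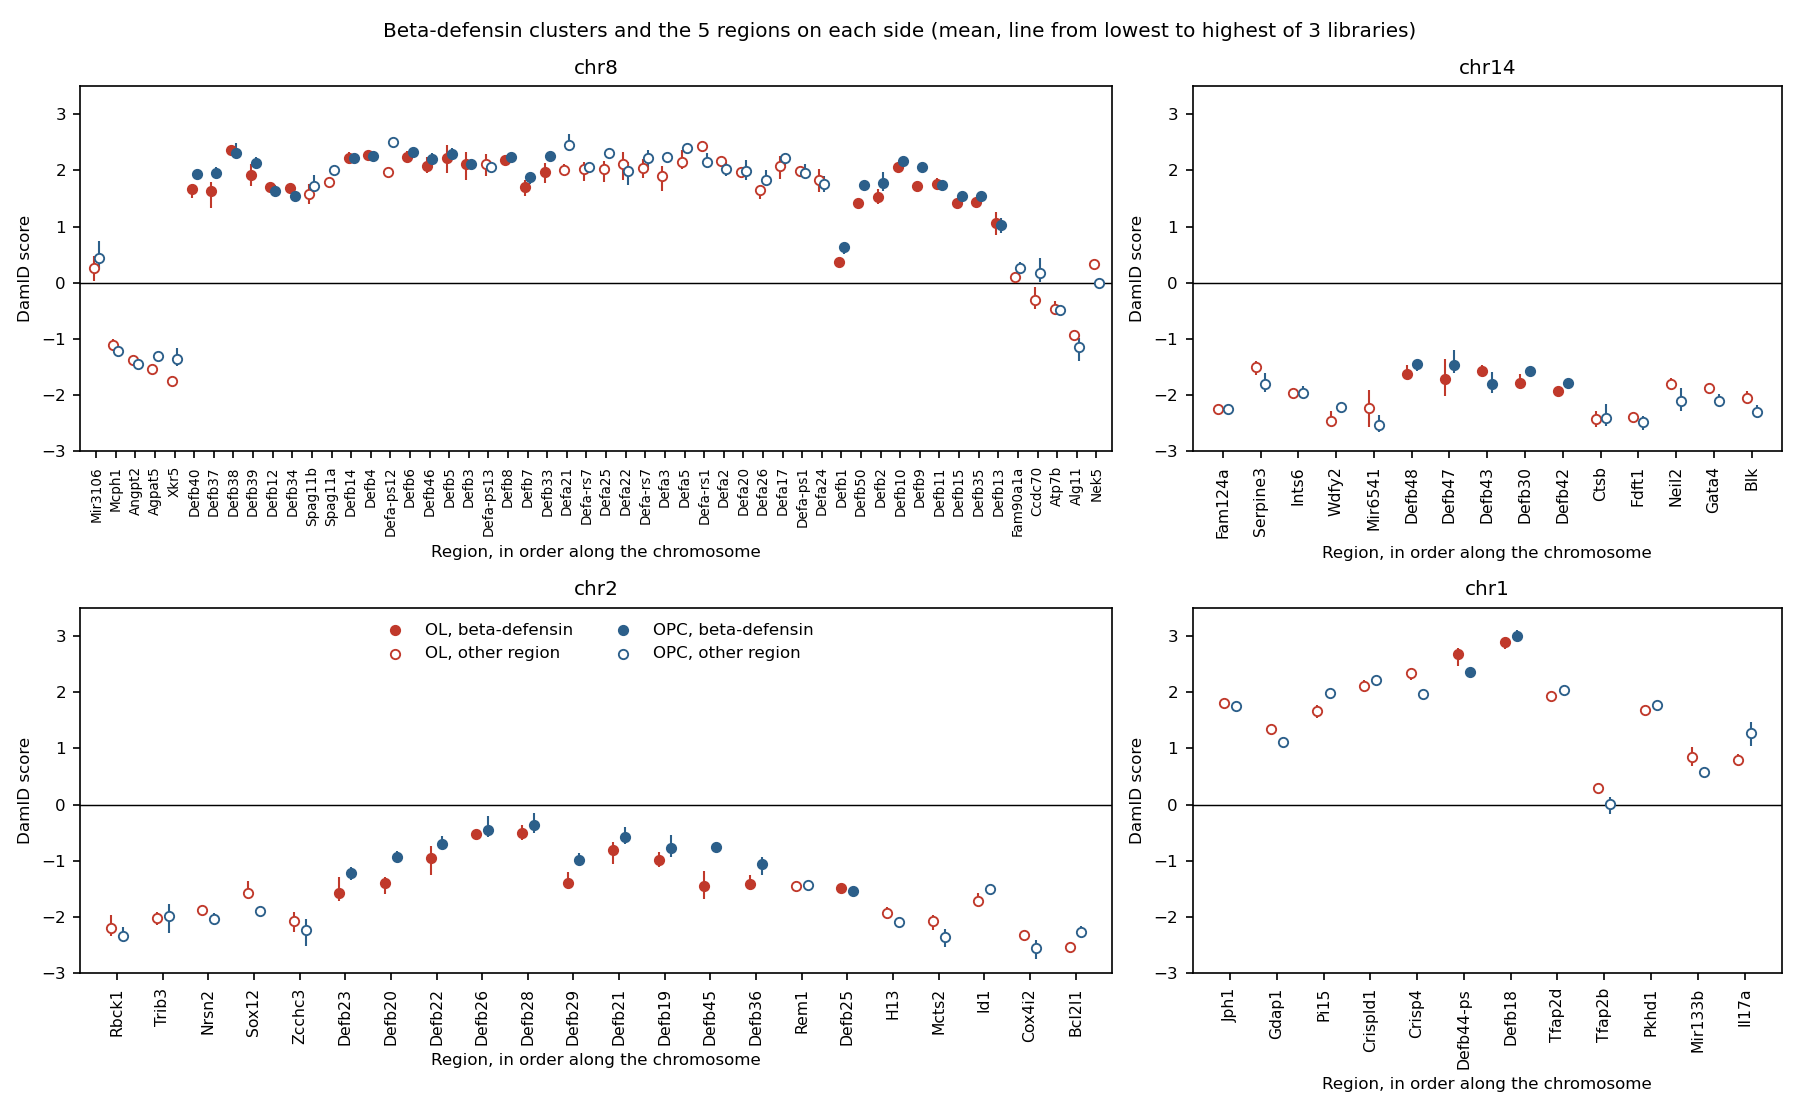
DamID score (vertical axis) of the beta-defensin regions (filled) with the 5 regions on each side and those inside (open), in order along each chromosome, for OL (red, left) and OPC (blue, right). Points are means and lines run from the lowest to the highest of 3 libraries; chr8 rises by over 3 units between Xkr5 and Defb40, while chr2 forms a low rise that stays below 0.

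On chr1, Defb18 (chr1:18234472-18247443) had the highest score of any member, with 2.77, 2.94 and 2.98 in OL and 2.92, 3.10 and 2.996 in OPC. It ranked 37 from the top of the 21534 regions in OL and 21 in OPC. The pseudogene Defb44-ps beside it (chr1:18208052-18233564) had 2.47, 2.76 and 2.79 in OL, all above its OPC values of 2.39, 2.41 and 2.31. The pair stood inside a wider stretch above 0. The 10 flanking regions were above 0 by the test in OL, 10 of 10, and 9 of 10 were in OPC, where Tfap2b, an AP-2 transcription factor gene, was at 0.00 ± 0.15 (SD, n = 3). Crisp4, an epididymal gene just before the pair, stood at 2.35 ± 0.11 in OL and 1.97 ± 0.02 in OPC (SD, n = 3 each). The pair's median was above the median of those 10 flanks by 0.86 to 1.26 in each library, and both members were above the highest flank in all 6 libraries.

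The chr2 cluster (chr2:152457054-152633053) holds genes of the epididymis and testis, among them Defb22, which coats sperm, and Defb19, a testis defensin. It lay below 0 with higher scores in the middle than at the ends. Defb28 (chr2:152508254-152523447), the highest, had −0.62, −0.53 and −0.35 in OL and −0.44, −0.50 and −0.15 in OPC, and Defb26, whose region overlaps it, stood at −0.52 ± 0.09 in OL and −0.45 ± 0.21 in OPC (SD, n = 3 each). At the outer ends Defb23 had −1.69, −1.72 and −1.29 in OL and −1.34, −1.10 and −1.21 in OPC, and Defb25 had −1.46, −1.43 and −1.55 in OL and −1.52, −1.56 and −1.55 in OPC. Both ends were below Defb28 in every library. The rise was not smooth, since Defb29, next after Defb28, stood at −1.39 ± 0.16 in OL and −0.99 ± 0.11 in OPC and Defb21 after it at −0.81 ± 0.22 in OL and −0.57 ± 0.15 in OPC. The regions next beyond the ends were lower still, with Zcchc3 at −2.07 ± 0.18 in OL and −2.23 ± 0.25 in OPC and H13, the signal peptide peptidase gene, at −1.93 ± 0.11 in OL and −2.09 ± 0.08 in OPC (SD, n = 3 each). The cluster's median was above that of its 10 flanks by 0.73 to 1.49 in each of the 6 libraries. Between 6 and 11 of the 11 members were above the highest flank, depending on the library. Defb25 shares its whole region with the GTPase gene Rem1, which stood at −1.44 ± 0.09 in OL and −1.43 ± 0.09 in OPC, so its value is not its own.

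The chr14 cluster (chr14:62975523-63050606) was the lowest and the most even, with region means from −1.92 to −1.56 in OL and from −1.79 to −1.44 in OPC. Defb48 (chr14:62975523-62994510) was the highest over both conditions, with −1.47, −1.67 and −1.71 in OL and −1.37, −1.58 and −1.37 in OPC. In OL the highest mean was that of Defb43, −1.56 ± 0.10 against −1.62 ± 0.13 for Defb48 (SD, n = 3 each). Defb42 (chr14:63036990-63050606), an epididymal gene, was the lowest over both conditions, with −1.89, −2.01 and −1.85 in OL and −1.74, −1.73 and −1.85 in OPC. Its highest OL and lowest OPC values nearly met, while those of Defb48 overlapped between the conditions. Wdfy2 before the cluster stood at −2.45 ± 0.14 in OL and −2.20 ± 0.04 in OPC, and the cathepsin B gene Ctsb after it at −2.43 ± 0.14 in OL and −2.40 ± 0.21 in OPC (SD, n = 3 each). The cluster's median was above that of its 10 flanks by 0.29 to 0.69 in each library. In OL library 19 no member was above the highest flank, and in OPC library 8 all 5 were.

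The second question was whether the scores differed between OL and OPC. No member changed sides of 0. This was common, since of all 21534 regions 5332 lay above 0 and 15079 below 0 in all 6 libraries. By limma over all regions, 8 of the 42 members (19.0%) were lower in OL, where 10.9% of all regions were, and 1 (2.38%) was higher, where 23.0% of all regions were. The 8 were Defb20, Defb29, Defb45 and Defb36 on chr2 and Defb40, Defb1, Defb50 and Defb9 on chr8, and the 1 was Defb44-ps on chr1. Without OL library 20, OPC library 9 or OPC library 10 the count of lower members was 5. The share of all regions that were lower in those fits is not given here. Without OL library 19 or 20 or OPC library 9 or 10 no member was higher, and without OPC library 8 the 1 higher member was Defb43 in place of Defb44-ps. The difference was below 0 in 32 of the 42 members and its median was −0.14, against 0.10 over all regions. With libraries scaled to a common mean and SD, 11 members were lower, where 15.1% of all regions were, and 1 was higher, where 15.5% were. Defb40 was not among the 11, and Defb23, Defb30, Defb42 and Defb48 were. The medians were then −0.15 over the members and 0.02 over all regions. Of the 5332 regions above 0 in all 6 libraries, 16.0% were lower and 15.2% higher, and on chr8 4 of 24 members (16.7%) were lower. Of the 15079 below 0 in all 6, 8.18% were lower and 25.1% higher. Among the members below 0, 4 of 11 on chr2 (36.4%) and 0 of 5 on chr14 were lower. OL and OPC libraries did not overlap in 12 members (28.6%), against 48.9% of all regions. All OL libraries were below all OPC libraries in 10 of them (15.4% of all regions), and above in 2 (33.5% of all regions). The authors' deposited table gives no member an adjusted p under 0.05, where 3.14% of all regions have one. Its lowest value for a member is 0.0681 for Defb50, and its unadjusted p is under 0.05 for 7 members (16.7%), where 32.7% of all regions have one.

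**Figure D4:**
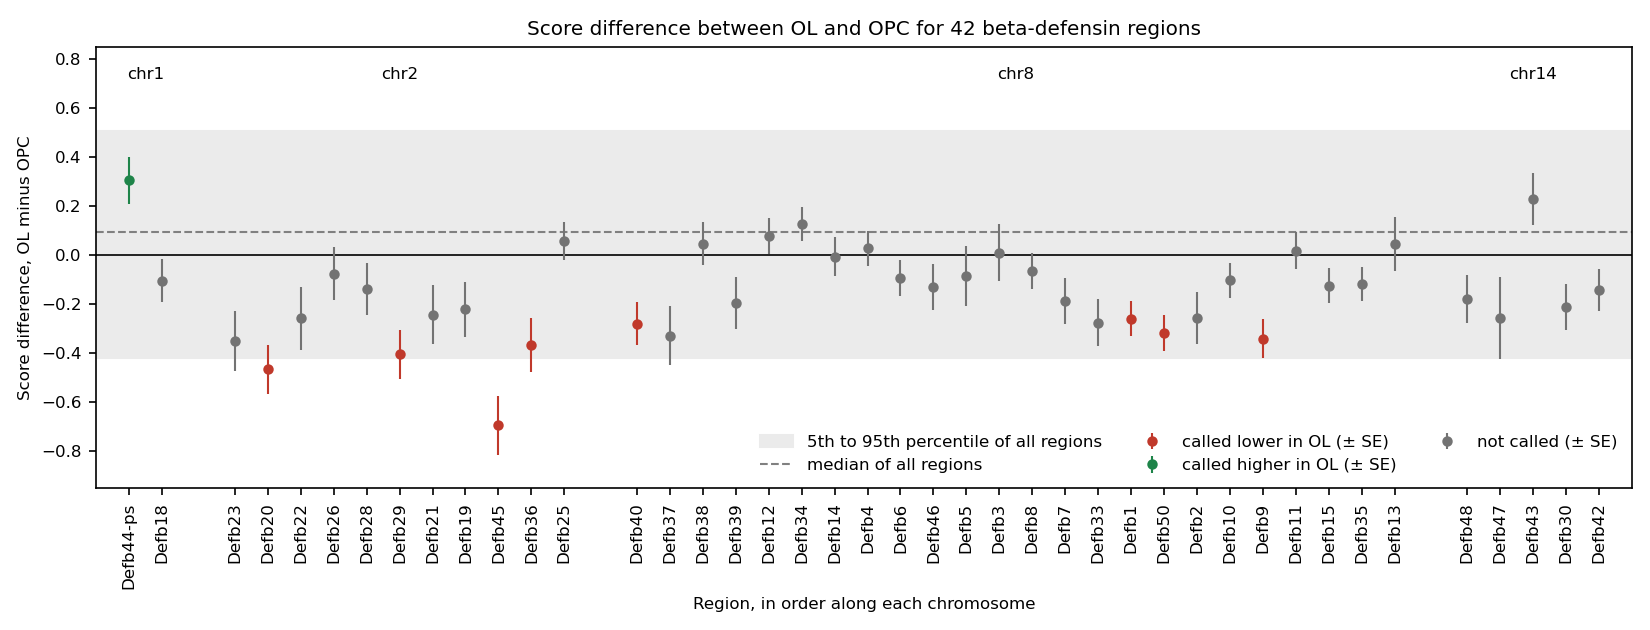
Score difference, OL minus OPC (vertical axis, ± SE from limma), of each beta-defensin region in order along each chromosome, with members lower in OL in red, higher in green and not past the threshold in grey. The dashed line is the median of all regions (0.10) and the band their 5th to 95th percentile (−0.42 to 0.51); Defb45 and Defb20 lie below the band.

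The largest difference was that of Defb45 (chr2:152591190-152606485), with −1.47, −1.18 and −1.67 in OL, all below its OPC values of −0.83, −0.67 and −0.74. It fell by 0.69 (SE 0.12, limma adjusted p = 0.0034) and passed the threshold in all 10 refits with another scaling, variance prior or set of regions or libraries, with adjusted p from 0.00203 to 0.0143 (limma). Defb36, whose region overlaps it, had −1.52, −1.25 and −1.48 in OL and −1.25, −0.98 and −0.92 in OPC, with ranges that met near −1.25, and fell by 0.37 (adjusted p = 0.0308). That call was lost without OL library 18 or 20 or OPC library 9 or 10, with adjusted p up to 0.0998 (limma). Defb20 had −1.59, −1.33 and −1.28 in OL and −1.01, −0.95 and −0.83 in OPC, with no overlap, and fell by 0.47 (adjusted p = 0.00806). Its call held in all 9 other fits that contain it. Defb29 had −1.20, −1.49 and −1.48 in OL and −0.87, −1.05 and −1.05 in OPC, with no overlap, and fell by 0.40 (adjusted p = 0.0152), a call lost without OL library 20 or OPC library 8, with adjusted p up to 0.0521 (limma). Among the other chr2 members, differences ran from −0.35 (Defb23, adjusted p = 0.053) to 0.06 (Defb25, adjusted p = 0.577). The higher middle of the cluster, Defb26 and Defb28, had −0.07 ± 0.11 and −0.14 ± 0.11 (SE, adjusted p = 0.61 and 0.343, limma), neither past the threshold. On the rest of chr2, 12.2% of 1855 regions were lower in OL.

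On chr8, Defb9 had 1.74, 1.61 and 1.81 in OL, all below its OPC values of 2.05, 2.13 and 1.99, and fell by 0.34 (SE 0.08, adjusted p = 0.0112, limma). Defb50 had 1.36, 1.49 and 1.40 in OL, again all below 1.796, 1.66 and 1.75 in OPC, and fell by 0.32 (SE 0.07, adjusted p = 0.0104). Both calls held in all 10 other fits. Defb1 fell by 0.26 (adjusted p = 0.0224), a call lost without OL library 19 or 20 or OPC library 9 or 10, with adjusted p up to 0.0880 (limma). Defb40 fell by 0.28 (adjusted p = 0.0343), a call lost with libraries scaled to a common mean and SD and without any 1 of the libraries except OL library 19, with adjusted p up to 0.112 (limma). Of these 4, Defb1, Defb50 and Defb9 belong to the distal group, where 3 of 10 members passed the threshold as lower. Defb40 belongs to the proximal group, where 1 of 14 did, against 10.9% of all regions. The difference was below 0 in 8 of the 10 distal and 9 of the 14 proximal members, and in 7806 of all 21534 regions. In the proximal group Defb37 had −0.33 ± 0.12 (SE, adjusted p = 0.0600, limma), with no overlap, and did not pass. Whether the groups differ in this was not tested. The largest positive difference on chr8 was that of Defb34, 0.13 ± 0.07 (SE, adjusted p = 0.186), and those of the even run from Defb14 to Defb8 lay between −0.13 and 0.03, none past the threshold. Over the 995 chr8 regions that are not beta-defensins, alpha-defensins included, 7.94% were lower in OL and 26.5% were higher.

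On chr1, Defb44-ps rose by 0.31 (SE 0.10, adjusted p = 0.0366, limma), a call lost without any 1 of the libraries except OL library 18, with adjusted p up to 0.121. Defb18 had a difference of −0.10 ± 0.09 (SE, adjusted p = 0.374). Beside them, Crisp4 rose by 0.38 (adjusted p = 0.00717), a call that held in all 10 other fits. The chr1 flanks went both ways. Of the 10, 4 were higher in OL, Crisp4 among them, and 2 were lower, Pi15 (−0.31) and Il17a (−0.47). Over all regions 23.0% were higher and 10.9% lower. On chr14 no member passed the threshold by limma on the scores as deposited, and 1 of its 5 members had an unadjusted p under 0.05, where 45.8% of all regions did. With libraries scaled to a common mean and SD, 3 of the 5 were lower in OL, where 15.1% of all regions were. They were Defb48 (adjusted p = 0.0269), Defb30 (0.0446) and Defb42 (0.0354, limma). After quantile normalization Defb48 and Defb42 were lower, and the share over all regions in that fit is not given here. Wdfy2 before the cluster was also lower by the test under either scaling, and not on the scores as deposited. On the scores as deposited the differences ran from −0.26 ± 0.17 (SE) for Defb47 to 0.23 ± 0.11 for Defb43 (adjusted p = 0.254 and 0.125, limma). The libraries of Defb47 were widely spread, with −1.36, −1.77 and −2.01 in OL and −1.20, −1.60 and −1.57 in OPC.

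The other defensins and antimicrobial genes gave a mixed picture. All 10 alpha-defensin genes, whose products arm the Paneth cells of the gut, lie inside the chr8 span and were above 0 in both conditions, with means from 1.66 (Defa26) to 2.16 (Defa2) in OL and from 1.75 (Defa24) to 2.45 (Defa21) in OPC. Of these, 1 was lower in OL, Defa21 (−0.44 ± 0.10, SE, adjusted p = 0.00944, limma), and its call held in all 10 other fits. These genes are near-identical copies and their single values are uncertain. Spag11a and Spag11b, sperm-associated genes with a defensin-like product, were above 0 in both conditions, and Spag11a was lower in OL (−0.21 ± 0.07, SE, adjusted p = 0.0451, limma). That call was lost in 8 of 10 other fits, with adjusted p up to 0.138, and held without overlapping regions and without OL library 18. Of 24 other antimicrobial protein genes elsewhere in the genome, 9 were above 0 and 12 below in OL, against 10 above and 10 below in OPC. Over all regions 25.9% were above and 70.9% below in OL, and 25.5% above and 71.4% below in OPC. The highest in OL was the gut lectin gene Reg3b at 2.37 ± 0.04, against 2.24 ± 0.08 in OPC, and the lowest in OL was the neutrophil granule gene Ngp at −2.26 ± 0.03, against −1.95 ± 0.15 in OPC (SD, n = 3 each). In OL, 6 of the 24 were lower than in OPC and 2 were higher, where 10.9% and 23.0% of all regions were. Of 6 receptors reported for beta-defensins, the chemokine receptor gene Ccr2 and the Toll-like receptor gene Tlr4 were above 0 in both conditions, at 2.09 ± 0.09 and 2.04 ± 0.17 in OL and 2.66 ± 0.07 and 1.95 ± 0.03 in OPC. Ccr6, Tlr1 and Mc1r were below 0 in both, and Tlr2 was below 0 in OL and not past the threshold in OPC. Between conditions, 3 of the 6 were higher in OL (Ccr6, Tlr1 and Mc1r) and 2 were lower (Ccr2 and Tlr2), by limma at the same threshold. Over all regions 23.0% were higher and 10.9% lower.

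Over the 42 members, a pair of libraries differed by a median of 0.10 to 0.17 when both came from 1 condition and of 0.14 to 0.22 when they came from OL and OPC. Over all regions these medians were 0.09 to 0.15 and 0.20 to 0.27. OL library 18 had the narrowest range of scores over all regions, with an SD of 1.46 against 1.53 to 1.59 in the other 5. Read depth is unknown, so counting error could not be given. Since all scores of a condition were set against the same pooled Dam reads, no p-value contains the spread of the Dam libraries. Nothing in the labels says that the libraries were separate cultures or animals, and the p-values then measure spread that may be technical.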

How the data were processed

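DamID-seq marks DNA near lamin B1 by Dam methylation at GATC, followed by methylation-specific PCR and sequencing. Of the 11 libraries, the 6 Dam-LMNB1 libraries each have 1 deposited score per region, which per the file headers is a mean over the region against the pooled Dam libraries of the same condition. Reads were trimmed with cutadapt 1.9.1 and aligned with BWA 0.7.17, and the build was mm10, as far as the submitters' processing notes name tools. How reads became scores, the log base and the placing of reads with several matches are not given in the sources used here, and read depth is unknown. The authors also deposited a p-value and an adjusted p-value per region for OL against OPC, whose test is not named. Regions of the members were set against annotated genes (RefSeq table, GRCm38.p6, 42 of 42 symbols matched). They reached 10 kb before the gene in 38 of the 42 and 2 kb after it in all 42, within 100 bp. Neighbouring regions can therefore overlap.

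Scores were used as deposited. limma 3.58.1 (R 4.3.3) was fitted over all 21534 regions with 1 mean per condition and a variance trend (9.42 degrees of freedom). It tested each mean against 0 and OL minus OPC, 2-sided, with Benjamini-Hochberg adjustment over all regions and a threshold of 0.05. The same step was run on simulated data with known shifts and independent noise. That simulation held no shared Dam reads, so it does not show how reliable the calls on these scores are. Cluster medians, counts against the 5 regions on each side, and lists got no test of their own. Alternatives were no variance trend, libraries set to the same mean and SD, quantile normalization, regions without overlap, a threshold of 0.01 and leaving out each library.

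The members, lists and tests were chosen with earlier results of these data known. Library values were given for the highest, lowest, first and last member of each cluster, for its largest rise and fall, and for every member called between OL and OPC. The last of these, and the genes named from other lists beside their extremes, were added after their values were seen. The Dam libraries were not analysed here on their own.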

Additional observations from a re-analysis of the deposited data

How the results depend on the processing

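All 26 members above 0 and all 16 below 0 kept their calls with other scalings, without the variance trend, at 0.01 and without any 1 library. With overlapping regions left out, 9 members below 0 remained to be tested in each condition, and 9402 and 9476 regions of the genome were below 0 in OL and OPC. The count of members lower in OL was 5 to 8 when 1 library was left out and 2 at an adjusted p under 0.01. The count of higher members was 0 to 1 with 1 library left out and 0 at 0.01. Over all regions, 3136 to 4132 were higher with 1 library left out, 2039 at 0.01 and 3056 without overlaps, and 1114 were lower at 0.01. Without overlaps the chr2 medians were −1.09 in OL and −0.74 in OPC, the chr8 median in OPC 2.09 and the chr14 median in OL −1.65. With the same mean and SD the chr8 median in OPC was 1.999, and with quantile normalization it was 1.99 and the chr14 median in OL −1.78. The difference of Defb25 was −0.046 with the same mean and SD and −0.024 after quantile normalization. That of Defb13 ranged from −0.049 to 0.159 when 1 library was left out, below 0 without OL library 20 or OPC library 10 only. Neither passed the threshold in any fit, and the cause was not tested. No paired analysis was possible because the OL and OPC libraries share no replicate number.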
